A study of Homo sapiens and Mus musculus with 9 samples.

Results

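The start codon windows described here cover 331 nucleotides of each transcript, from 30 nt before to 300 nt after the first nucleotide of the start codon, which is position 0. They come from 4 ribosome profiling (Ribo-seq) libraries of HEK293 cells, a human embryonic kidney line, in which the fragments of mRNA protected by ribosomes are sequenced. A transcript entered when its window was listed in each of the 4 libraries, which held for 11240 of the 15493 transcripts listed in at least 1. The libraries called trans1 and trans2 were both labelled as starvation with transfection of a trans-RNA against ATF4, and the labels do not say whether they are repeats or carry different RNAs. The third library was starvation alone and the fourth an untreated control, and all were labelled wild type. A starved library transfected with an unrelated RNA was not analysed here, so the trans-RNA and the transfection cannot be told apart. Each group had 1 library, so differences between libraries carry no test and no replicate error, and counts of changed transcripts below follow a rule of size. No mRNA library of these cells was analysed here, so the number of mRNA molecules and their translation cannot be told apart in read numbers.

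During initiation a small ribosomal subunit carrying the initiator tRNA scans the leader of the mRNA and stops at a start codon, where the large subunit joins. The start codon then lies in the P site, and the 5′ end of the footprint lies upstream of it by a nearly constant offset. Elongating ribosomes advance codon by codon, so footprint ends recur every 3 nt. Amino acid starvation and other stresses slow initiation on most mRNAs through phosphorylation of the initiation factor eIF2, and the mRNA of the transcription factor ATF4 is a known exception.

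The deposited values are densities, each nucleotide's reads over an average for its transcript, apparently that of its coding region. The read numbers behind them were recovered from their common step. The windows held 2800276 reads in trans1, 3308578 in trans2, 4179622 in starvation and 4747143 in control, with medians of 30, 42, 47 and 57 reads per window in that order of libraries. Reads were spread over fewer nucleotides in trans1 and starvation. Among windows with 64 to 127 reads, the median number of positions with a read was 25 in trans1, 34 in trans2, 24 in starvation and 31 in control. The 3496 windows with at least 64 reads in each library are called well-covered here. Comparisons between libraries use limits of their own, given with them, and some transcripts named in them have few reads in a library outside the comparison. RPL41, a ribosomal protein mRNA with a very short coding region, alone took 4.74% of all window reads in trans1, 2.16% in trans2, 2.87% in starvation and 1.92% in control. Gene symbols could be given to 3150 of the 11240 transcripts, and the others are counted without a name. Of the HEK293 markers only NEFL, a neurofilament gene, had a window, with 17, 29, 15 and 37 reads in trans1, trans2, starvation and control. The fibroblast marker COL1A1 had 2, 11, 1 and 17 reads, and the other 10 markers were not paired with a window, so the cell type was not checked further.

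The highest mean density of the whole window stood at position -12 in all 4 libraries. Averaged over the 11240 windows it was 8.19 in trans1, 8.28 in trans2, 8.88 in starvation and 8.06 in control, where 1 is the average used for the transcript. Among the 3496 well-covered windows it was 7.50, 7.57, 7.92 and 7.48 in the same order. The peak was of nearly equal height in the mean profile, but many windows had no read there. A read at position -12 was present in 39.1% of well-covered windows in trans1, 56.0% in trans2, 48.2% in starvation and 56.6% in control. Without the 1% of windows with the highest value, the mean over all windows was 4.44 in trans1, 5.51 in trans2, 5.41 in starvation and 5.51 in control. That changed the order of the libraries, since starvation was then no longer highest and trans1 stood lowest.

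**Figure D1:**
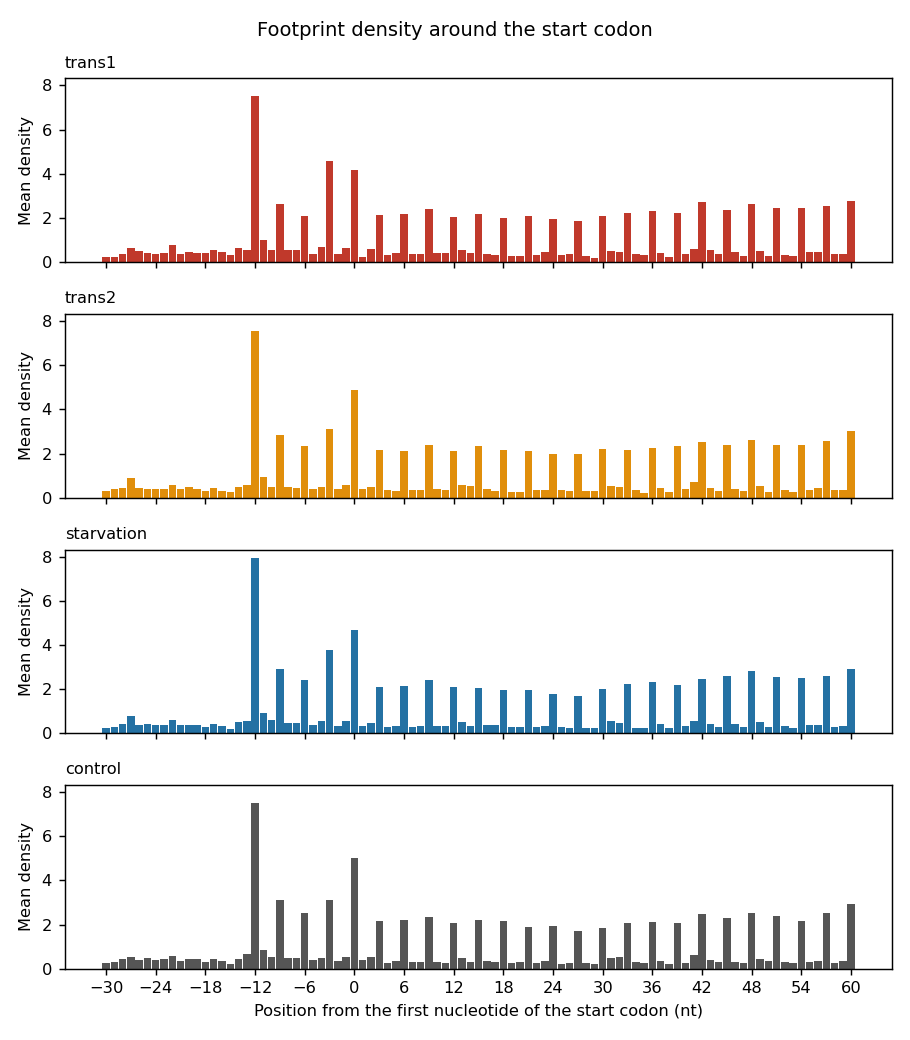
Mean density of the 3496 well-covered windows at each nucleotide from 30 nt before to 60 nt after the first nucleotide of the start codon, with 1 panel per library and 1 bar per nucleotide. The tallest bar stands at -12 in every panel, at 7.50 in trans1, 7.57 in trans2, 7.92 in starvation and 7.48 in control, and the bar at -3 is taller in trans1 than in the other panels.

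Counted as a share of all window reads, the position -12 differed more between libraries. It held 1.33% of reads in trans1 (exact 95% interval 1.32 to 1.35), 1.91% in trans2 (1.89 to 1.92), 1.66% in starvation (1.65 to 1.67) and 2.15% in control (2.13 to 2.16). These intervals do not overlap, but they cover counting error only, and sequenced reads are not independent molecules. Pooled reads give most weight to abundant mRNAs, whereas the mean density gives each transcript the same weight. The density at the peak also depends on length, since the same share of reads gives a higher density on a longer transcript. In well-covered windows of transcripts whose recovered length was at least 1500 nt, the mean density at -12 was 17.6 in trans1, 16.1 in trans2, 16.7 in starvation and 15.2 in control. In those under 300 nt it was 3.26, 3.996, 3.75 and 3.57. The mean share of a window's own reads at -12 differed far less by length, at 2.35%, 2.31%, 2.29% and 2.17% for the long class and 2.21%, 2.56%, 2.50% and 2.39% for the short class.

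**Figure D2:**
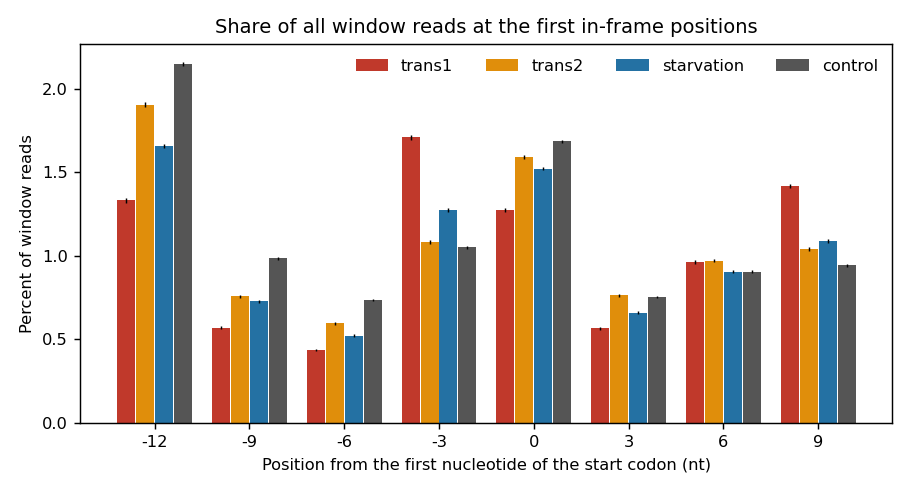
Percent of all window reads of the 11240 windows at 8 in-frame positions from -12 to 9, with 4 bars per position in the order trans1, trans2, starvation and control and exact 95% intervals of counting error. At -12 the bars stand at 1.33, 1.91, 1.66 and 2.15, and at -3 trans1 stands highest, at 1.71.

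The transcripts with the most reads at the peak were led by RPL27A, which encodes a protein of the large ribosomal subunit. At position -12 it had 400 reads of 5576 in trans1, 2184 of 8642 in trans2, 1784 of 7875 in starvation and 6563 of 22226 in control. Those are 7.17% (6.51 to 7.88), 25.3% (24.4 to 26.2), 22.7% (21.7 to 23.6) and 29.5% (28.9 to 30.1) of its window reads. RPL27A thus had its lowest peak share in trans1, far below the intervals of the other libraries. The histone H3 mRNA H3C2 had 245 reads there in trans1, 435 in trans2, 603 in starvation and 3450 in control, or 3.99%, 2.67%, 3.93% and 12.5% of its own. For H3C10, a near-identical histone gene, the shares were 8.05%, 8.42%, 7.67% and 13.4%, so both histone peaks were highest in control. Reads of such near copies may have been split between genes in a way the deposited tables do not show. The other 7 of the first 10 transcripts have no symbol in the files. Among them ENST00000676547 had 1294, 2414, 1591 and 3256 reads at the peak in trans1, trans2, starvation and control.

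In 20 of the 3496 well-covered windows position -12 held at least 20% of the reads in all 4 libraries, and 5 of these have a symbol. IER5, an immediate early response gene, had the highest shares, with 129 of 224 reads in trans1, 75 of 220 in trans2, 172 of 295 in starvation and 47 of 154 in control. As shares these are 57.6%, 34.1%, 58.3% and 30.5%. WDR33, a subunit of the mRNA polyadenylation machinery, stood at 23.9%, 33.3%, 35.7% and 28.9%. DNAJB14, a co-chaperone of the HSP40 family, stood at 21.9%, 28.9%, 34.0% and 23.4%, and RPP25L and CCDC97 were the remaining pair. Transcripts with a high peak share in one library tended to have one in the others. Across the 3496 windows the share at -12 in one library followed that in another with Pearson's r between 0.787 and 0.870 and Spearman's rho between 0.647 and 0.749. These correlations are across transcripts that share length and sequence, and are given as a description.

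A share at position -12 was compared between libraries for windows with at least 64 reads in both and at least 16 reads at the position in both together. It was called changed when the reads at the position relative to the other reads of the window, with 1 read added to each, differed at least 2-fold. In trans1 against starvation 79 of 698 windows were higher (11.3%) and 180 lower (25.8%), with a median log2 change of -0.28. Lower calls were thus the more frequent ones in trans1. For trans2 against starvation 162 of 843 were higher (19.2%) and 153 lower (18.1%), with a median of 0.03. In starvation against control 159 of 998 were higher (15.9%) and 236 lower (23.6%), with a median of -0.12. Each comparison uses the same starvation library, as the reference in the first 2 and as the tested side in starvation against control. Its chance deviations enter each of them, with opposite sign in the last.

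Among named transcripts with a lower peak share in trans1 than in starvation, DRG1, a GTP-binding protein, had 1 of 287 reads at -12 in trans1 and 37 of 629 in starvation. It had 8 of 445 in trans2 and 28 of 760 in control, so trans1 was the lowest of the 4 libraries. SLC2A3, the glucose transporter GLUT3, had 8 of 121 in trans1, 60 of 173 in trans2, 59 of 171 in starvation and 111 of 295 in control. Its peak share was 6.61% in trans1, against 34.7%, 34.5% and 37.6% in the others, so trans1 was the low library. SEC62, a component of the channel for protein entry into the endoplasmic reticulum, was also lowest in trans1, with 4 of 134, 32 of 164, 41 of 200 and 52 of 365. On the higher side INIP, a subunit of a complex that binds single-stranded DNA, had 19 of 162 in trans1, 2 of 169 in trans2, 1 of 126 in starvation and 2 of 244 in control.

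Higher in trans2 than in starvation was ARIH1, a ubiquitin ligase, with 32 of 316 reads at -12 in trans2 and 1 of 351 in starvation. FTH1, the heavy chain of ferritin, had 0 of 207 in trans1, 18 of 485 in trans2, 0 of 419 in starvation and 8 of 444 in control. Both had a peak in trans2 and control and at most 1 read in trans1 and starvation. CKS2, a subunit that binds cyclin-dependent kinases, had 92 of 2180 in trans2, against 20 of 1469 in trans1, 19 of 2796 in starvation and 23 of 3590 in control. The lowest in trans2 was SRP68, a protein of the signal recognition particle, with 0 of 236, against 20 of 263 in starvation. It had 6 of 176 in trans1 and 1 of 320 in control, so starvation was the high library. HYOU1, a chaperone of the endoplasmic reticulum, likewise had 0 of 24 reads at -12 in trans1, 1 of 71 in trans2, 17 of 123 in starvation and 1 of 117 in control.

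Starvation against control gave its highest named changes at -12 for SRP68 and HYOU1. RHEB, the GTPase that activates the growth kinase complex mTORC1, had 15 of 467 in starvation and 3 of 679 in control. LAMTOR2, a subunit of the lysosomal scaffold that recruits this complex, had 20 of 239 in starvation and 4 of 439 in control. In trans1 and trans2 the shares of LAMTOR2 were low again, with 2 of 117 and 5 of 223. On the lower side MRTO4, an assembly factor of the large ribosomal subunit, had 0 of 863 reads in starvation and 39 of 1211 in control. TUBA1C, an alpha-tubulin, had 7 of 350 in starvation and 78 of 521 in control. CCND1, the G1 cyclin D1, had 1 of 336 and 17 of 429 in the same order. TUBA1C stayed low with 7 of 190 in trans1 and 8 of 261 in trans2, and CCND1 with 0 of 292 and 2 of 390.

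Position -3, in frame with the start codon and 9 nt after the peak, stood out in trans1. Its mean density over well-covered windows was 4.60 in trans1, 3.12 in trans2, 3.78 in starvation and 3.09 in control. On the log2 scale that is 0.28 higher in trans1 than in starvation, -0.28 in trans2 against starvation, and 0.29 in starvation against control. At the in-frame positions between, the libraries lay closer together. The means over well-covered windows were 2.63, 2.85, 2.93 and 3.12 at -9 and 2.08, 2.34, 2.43 and 2.53 at -6, with trans1 lowest. At -15, before the peak, log2 differences from starvation were larger than at -3, 0.81 in trans1 and 0.43 in trans2. They rest on low mean densities of 0.32, 0.25, 0.18 and 0.20. Position 0 carried the second highest density of trans2, starvation and control, at 4.86, 4.65 and 5.00, and stood at 4.17 in trans1. In trans1 position -3 therefore stood above position 0, and in the other 3 libraries below it.

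The higher value at -3 in trans1 was not carried by 1 transcript. RPL7A, a protein of the large ribosomal subunit, gave the most reads there, 20.4% of all in trans1, 18.2% in trans2, 23.6% in starvation and 12.6% in control. Without the 1% of well-covered windows with the highest value the mean was 3.27 in trans1, 2.40 in trans2, 2.68 in starvation and 2.33 in control. A density of at least 10 at -3 was reached by 379 well-covered windows in trans1, 274 in trans2, 330 in starvation and 266 in control. It was the position with the most reads in 70, 34, 41 and 32 of them. By contrast a read at -3 was present in fewer windows in trans1, 37.4%, against 47.5% in trans2, 42.7% in starvation and 49.8% in control. Occupied positions were also fewer in trans1 and starvation over the whole window, and the part of this in the result was not tested.

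Called by the same rule as at -12, the share of window reads at -3 was higher in trans1 than in starvation for 128 of 518 windows (24.7%) and lower for 85 (16.4%), with a median log2 change of 0.25. For trans2 against starvation 75 of 563 were higher (13.3%) and 134 lower (23.8%), with a median of -0.32. In starvation against control 155 of 623 were higher (24.9%) and 108 lower (17.3%), with a median of 0.13. CITED2, a transcriptional coactivator, had 21 of 243 reads at -3 in trans1, 0 of 262 in trans2, 3 of 302 in starvation and 0 of 330 in control. SPC24, a kinetochore protein, had 15 of 743, 2 of 1113, 1 of 1435 and 4 of 1133. For both the reads at this position lay mainly in trans1. YWHAZ, a 14-3-3 protein, had 41 of 2967, 19 of 4073, 16 of 5119 and 19 of 5818. In the other direction EIF1, the factor that keeps scanning ribosomes from stopping at poor start codons, had 0 of 5599 reads at -3 in trans1, 26 of 6091 in trans2, 17 of 8348 in starvation and 19 of 6988 in control. ID2, an inhibitor of helix-loop-helix transcription factors, had 0 of 354, 6 of 744, 23 of 695 and 13 of 722. EIF1 and ID2 thus had no read in trans1 at a position where the other 3 libraries had reads.

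In trans2 against starvation RPS13, a protein of the small ribosomal subunit, had 23 of 15717 reads at -3 in trans2 and 2 of 19062 in starvation. EIF4A1, the helicase that opens mRNA leaders, had 2 of 3113 in trans1, 39 of 4635 in trans2, 8 of 5761 in starvation and 37 of 6734 in control. Both had shares in trans2 and control above those in trans1 and starvation. The ubiquitin-conjugating enzyme UBE2D2 had 3 of 246 in trans1, 2 of 339 in trans2, 20 of 345 in starvation and 1 of 579 in control. UBE2D2 was also among the highest in starvation against control, where EID2 led with 18 of 114 in starvation and 0 of 107 in control. At the low end of that comparison ATP5F1A, a subunit of the mitochondrial ATP synthase, had 0 of 313 in starvation and 16 of 404 in control.

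After the start codon the density was lowest at footprint positions around codons 7 to 10. This was followed in the 2250 well-covered windows with a recovered length of at least 600 nt, where the window does not reach the end of the coding region. Footprints placed on the start codon itself, counted as codon 1, had a mean density per nucleotide of 1.92 in trans1, 2.15 in trans2, 2.01 in starvation and 2.21 in control. Which end of the footprint was placed was not given, and codon numbers here follow the footprint position without a shift. If the peak at -12 marks ribosomes at the start codon, the codon in the P site lies further downstream than the number given. Over codons 2 to 10 it was 1.12, 1.11, 1.03 and 1.04, and at codon 10 it was 0.919, 1.02, 0.820 and 0.864. The dip was thus present in each library and least deep in trans2 at its lowest codon. Density was then higher over codons 31 to 40, at 1.52, 1.43, 1.45 and 1.42, and over codons 61 to 70, at 1.58, 1.43, 1.53 and 1.45. Over codons 91 to 100 it was 1.37, 1.29, 1.32 and 1.28. Codons 38, 40 and 61 gave the highest values after codon 1 in trans1, trans2 and starvation, and codons 61, 40 and 100 in control. From codon 31 on, each of these stretches was highest in trans1.

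**Figure D3:**
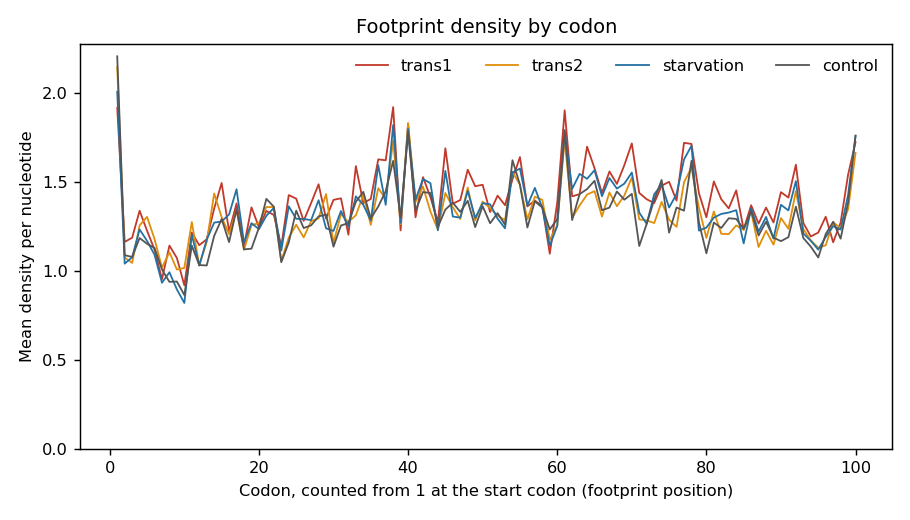
Mean density per nucleotide by codon, for the 2250 well-covered windows with a recovered length of at least 600 nt, with the footprint position counted from codon 1 at the start codon and 1 line per library. All 4 lines fall to their lowest values around codons 7 to 10, between 0.820 and 1.01, and lie between 1.28 and 1.37 on average over codons 91 to 100.

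The reading frame was clear in every library. Of reads in the first 300 nt of the coding region, 84.96% lay in frame 0 in trans1, 84.2% in trans2, 87.3% in starvation and 86.2% in control, pooled over all windows. In the leader from -30 to -16 the shares were 34.7%, 35.8%, 36.8% and 33.1%, close to an even spread over the frames, and this region held 0.905%, 0.995%, 0.835% and 1.16% of window reads. Among well-covered windows the median share in frame 0 was 84.5%, 85.7%, 87.5% and 86.6%. Each transcript given the same weight over all windows, frame 0 took 70.9%, 72.2%, 74.4% and 74.0% of the density. Over all windows, pooled reads and equal weights both kept starvation highest and put a different trans library lowest.

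The lower frame 0 share in trans1 and trans2 was less marked when a pair of transcripts was left out. In the 2250 long and well-covered windows, 76.1% of reads at positions 0 to 99 lay in frame 0 in trans1 and 76.5% in trans2, against 83.2% in starvation and 83.3% in control. Without ENST00000674920 these shares were 80.2%, 79.3%, 83.4% and 83.4%. That transcript had 20683 early reads in trans1, 16727 in trans2, 758 in starvation and 788 in control, and its frame 0 share was 30.4%, 26.8%, 38.9% and 20.2%. In the third stretch of 100 nt of the same windows, KCTD19 had 3581, 12548, 4357 and 10183 reads at the 1 position 295 in trans1, trans2, starvation and control. Without both transcripts frame 0 in that stretch held 82.4% in trans1, 79.96% in trans2, 85.4% in starvation and 84.7% in control, against 80.7%, 75.2%, 84.0% and 81.7% with them.

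In 100 of the 3496 well-covered windows, which is 2.86%, less than 50% of the reads lay in frame 0 in all 4 libraries. KCTD19 had 0.65%, 0.76%, 0.75% and 0.83% of its reads in frame 0 in trans1, trans2, starvation and control. MT-ND5, a subunit of respiratory complex I encoded in mitochondrial DNA, had 48.8%, 39.9%, 42.6% and 39.8%. Windows of this kind were present at similar numbers in each library, with 174, 158, 159 and 153 below 50%.

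Early density, at positions 0 to 99, was close to late density, in the third stretch of 100 nt, in the mean profile. Their ratio over all windows was 1.01 in trans1, 1.06 in trans2, 0.993 in starvation and 1.02 in control. In pooled reads the ratio was 1.26, 1.17, 1.15 and 1.07, with the highest value in trans1. In coding regions under 300 nt the late window lies wholly or partly past the stop codon. For these transcripts the pooled ratio was 5.04, 3.61, 3.96 and 3.03, and for those of at least 600 nt it was 0.926, 0.885, 0.831 and 0.849. RPL41 alone gave 13.9% of all early reads in trans1, 6.48% in trans2, 8.82% in starvation and 6.17% in control. For long transcripts both the ratio and its order among libraries therefore depended on how transcripts were weighted, as 1.01, 1.07, 0.997 and 1.02 in the mean profile show.

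Single transcripts differed from each other far more than libraries did. Over the 3643 transcripts with at least 32 early plus late reads in each library, the median log2 early-to-late ratio was -0.25 in trans1, -0.12 in trans2, -0.20 in starvation and -0.22 in control. The range from the 10th to the 90th percentile ran between -3.62 and 3.33 in trans1, -2.48 and 2.68 in trans2, -3.31 and 2.99 in starvation, and -2.51 and 2.35 in control. The ratios were thus spread more widely in trans1 and starvation than in trans2 and control. Among the 2250 long and well-covered windows, 70 had no early read in trans1, 22 in trans2, 50 in starvation and 27 in control. No late read was found in 42, 21, 23 and 18. The 2 libraries with the wider spread are the 2 with fewer occupied positions at a given number of reads, and the part of this in the changes below was not tested. A transcript's ratio was largely kept between libraries, with Pearson's r between 0.893 and 0.936 and Spearman's rho between 0.887 and 0.924 over the 3643 transcripts, given as a description.

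Changes of the ratio were called at 2-fold, with 1 read added to each window and at least 32 early plus late reads in both libraries. In trans1 against starvation 588 of 3827 transcripts were higher (15.4%) and 596 lower (15.6%), with a median log2 change of -0.00031. In trans2 against starvation 876 of 4475 were higher (19.6%) and 536 lower (12%), with a median of 0.16. Centred on that median, 698 were higher and 678 lower. In starvation against control 753 of 4744 were higher (15.9%) and 866 lower (18.3%), with a median of -0.04. For a sense of counting error alone, the exact 95% intervals of the early share were compared over all transcripts tested. They did not overlap for 717 (18.7%) in trans1 against starvation, 990 (22.1%) in trans2 against starvation and 1225 (25.8%) in starvation against control. Among the transcripts called higher and lower the intervals were apart for 43.0% and 38.9% in trans1 against starvation, 49.1% and 43.7% in trans2 against starvation, and 50.9% and 50.3% in starvation against control. About as many or more of the called transcripts therefore had overlapping intervals of counting error.

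Transcripts with a recovered length of at least 600 nt gave similar shares. They were 17.6% higher and 16.7% lower of 2563 in trans1 against starvation, 21% and 12.4% of 3086 in trans2 against starvation, and 16.4% and 19.9% of 3323 in starvation against control. Calls were thus about as frequent where the whole window lies in the coding region. Of 3681 transcripts tested in both trans-RNA comparisons, which share the starvation library, 180 were higher in both, 130 lower in both and 116 opposite.

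**Figure D4:**
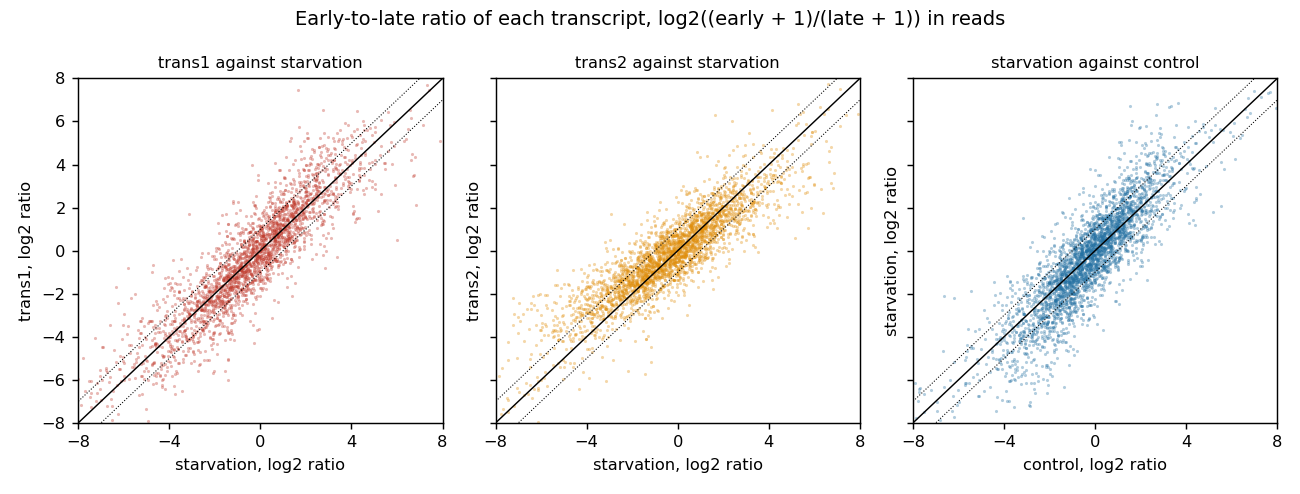
Early-to-late ratio of each transcript with a recovered length of at least 600 nt, as log2 of early over late reads with 1 read added to each, with 1 panel per comparison and 1 point per transcript. The vertical axis is trans1, trans2 or starvation and the horizontal axis starvation, starvation or control. The solid line marks equal ratios and the dotted lines a 2-fold change, and the clouds lie along the solid line with 17.6%, 21% and 16.4% of points above the upper dotted line.

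The highest named change of the early-to-late ratio in trans1 was that of PPTC7, a mitochondrial protein phosphatase. It had 9 early and 31 late reads in trans1, 11 and 50 in trans2, 0 and 81 in starvation, and 12 and 33 in control. The early share was 22.5% (10.8 to 38.5), 18.0% (9.36 to 30.0), 0% (0 to 4.45) and 26.7% (14.6 to 41.9). Starvation was therefore the library apart, and PPTC7 is also the lowest named transcript in starvation against control, with a log2 change of -4.97. WDHD1, a protein of the DNA replication fork, was high in both trans libraries instead, with 62 early and 3 late reads in trans1, 16 and 3 in trans2, 16 and 21 in starvation, and 13 and 33 in control. Its early share was 95.4%, 84.2% (60.4 to 96.6), 43.2% (27.1 to 60.5) and 28.3%, and the trans1 and starvation intervals did not overlap.

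ATG10, an enzyme of autophagosome formation, had 44 early and 3 late reads in trans1, 21 and 3 in trans2, 31 and 33 in starvation, and 52 and 12 in control. KPNA1, a nuclear import receptor, had 49 and 2, 56 and 28, 68 and 43, and 99 and 36 in the same order, so only trans1 was apart among these libraries. MCM2, a subunit of the replicative helicase, had 8 and 40, 9 and 19, 0 and 51, and 14 and 90. Of the 10 highest named transcripts 4 had no early read in starvation, namely PPTC7, MCM2, ERFE and C10orf88. The other 3 of the 10 were ZFP36L2, which promotes decay of AU-rich mRNAs, SERINC5 and SCAF11, a factor linked to splicing.

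The lowest named changes in trans1 were those of ZNF595, a zinc finger gene, and RRP8, a methyltransferase of ribosomal RNA. ZNF595 had 47 early and 10 late reads in trans1, 147 and 11 in trans2, 114 and 0 in starvation, and 150 and 11 in control, so starvation was the library without late reads. RRP8 had 3 and 77 reads in trans1, 34 and 50 in trans2, 18 and 22 in starvation, and 54 and 59 in control. Its early share was 3.75% (0.780 to 10.6) in trans1, against 40.5% (29.9 to 51.7), 45.0% (29.3 to 61.5) and 47.8% (38.3 to 57.4) in the others. RRP8 was thus low in trans1 alone among the 4 libraries. The same held for CCN1, a secreted matrix protein, with 0 early and 47 late reads in trans1, 15 and 80 in trans2, 11 and 48 in starvation, and 10 and 51 in control. RDH10, a retinol dehydrogenase, had 3 and 51, 28 and 25, 18 and 20, and 19 and 31. SNW1, a splicing factor, had 10 and 47, 24 and 16, 28 and 10, and 64 and 38. SRF, the serum response transcription factor, had 0 and 90, 9 and 63, 3 and 42, and 20 and 90, and SLC25A24, CCDC90B, GNG5 and ANAPC13 completed the 10. For GNG5 and ANAPC13 the late window lies mostly or wholly past the stop codon, since their recovered lengths are 210 and 114 nt.

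In trans2 against starvation the highest named transcript was HSPA13, a member of the HSP70 family, with 11 early and 54 late reads in trans2 and 0 and 152 in starvation. It had 2 and 49 in trans1 and 4 and 58 in control. TTC19, an assembly factor of respiratory complex III, had 2 and 66 in trans1, 12 and 70 in trans2, 0 and 125 in starvation and 8 and 125 in control. For both, the early share in trans2 was the highest of the 4 libraries and that in starvation the lowest. Of the 10 highest named transcripts 7 had no early read in starvation. MED14, a Mediator subunit, and PRPSAP1, a partner of the enzyme that makes phosphoribosyl pyrophosphate, had none in trans1 either, with 0 and 120 and 0 and 96 reads there. Frame 0 held only 46.7%, 23.5%, 45.0% and 36.7% of the MED14 reads in trans1, trans2, starvation and control. PIGX, of the pathway that makes lipid anchors of proteins, had 2 and 73 in trans1, 21 and 118 in trans2, 1 and 172 in starvation and 0 and 215 in control, so trans2 was the library apart.

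On the low side of trans2 against starvation PELI1, a ubiquitin ligase of innate immune signalling, had 33 early and 9 late reads in trans2 and 83 and 0 in starvation. It had 17 and 8 in trans1 and 17 and 7 in control, so starvation again stood apart. AP1B1, a subunit of a clathrin adaptor, had 203 and 9 in trans1, 73 and 9 in trans2, 222 and 1 in starvation, and 164 and 24 in control. TAF4, a subunit of the general transcription factor TFIID, had 25 and 57, 9 and 220, 13 and 31, and 14 and 53, and its highest position held 86.8% of its window reads in trans2. RIC8A, a chaperone of G protein alpha subunits, had 63 and 5, 42 and 20, 122 and 5, and 86 and 56. TMX3, a thiol oxidoreductase of the endoplasmic reticulum, had 15 and 0, 30 and 27, 41 and 3, and 74 and 28. In RIC8A and TMX3 the late share was higher in trans2 and control than in trans1 and starvation. The short ANAPC13 and TMSB10, of 114 and 138 nt, were also among the 10, with PPP6R1 and ZNF595.

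In starvation against control the highest named transcripts were AP1B1 and ERCC6L2, the second with 32 early and 0 late reads in starvation and 39 and 17 in control. ERCC6L2, a helicase-like protein of DNA repair, had 30 and 0 in trans1 and 54 and 1 in trans2. Control was thus the library with more than 1 late read. TP53RK, a kinase of the complex that modifies transfer RNA, had 59 and 2 in starvation and 39 and 19 in control. SPTLC2, a subunit of the first enzyme of sphingolipid synthesis, had 8 and 14 in trans1, 13 and 14 in trans2, 37 and 10 in starvation and 10 and 29 in control. ME1, the cytosolic malic enzyme, had 33 and 2 in starvation and 29 and 25 in control. URI1, RIC8A, CCDC125, CCDC90B and HECA were the other 5, with early shares between 87.4% and 100% in starvation.

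The lowest in starvation against control included 6 with no early read in starvation and none with an empty early window in control. GPAT4, an acyltransferase of glycerolipid synthesis, had 0 early and 56 late reads in trans1, 4 and 69 in trans2, 0 and 130 in starvation and 9 and 71 in control. SAFB, a nuclear matrix protein, had 0 and 27 in trans1, 8 and 36 in trans2, 0 and 52 in starvation and 22 and 90 in control. Both had reads in the early window in trans2 and control and none in trans1 and starvation. ALDH18A1, an enzyme of proline synthesis, had 1 early and 4 late reads in trans1, 14 and 22 in trans2, 3 and 50 in starvation, and 33 and 26 in control. Its early share was 5.66% (1.18 to 15.7) in starvation and 55.9% (42.4 to 68.8) in control. METAP1D, a mitochondrial methionine aminopeptidase, CDC42EP4, HAND1, a transcription factor of heart development, and TMEM134 were also among the 10, with PPTC7, PRPSAP1 and HSPA13 described above.

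**Figure D5:**
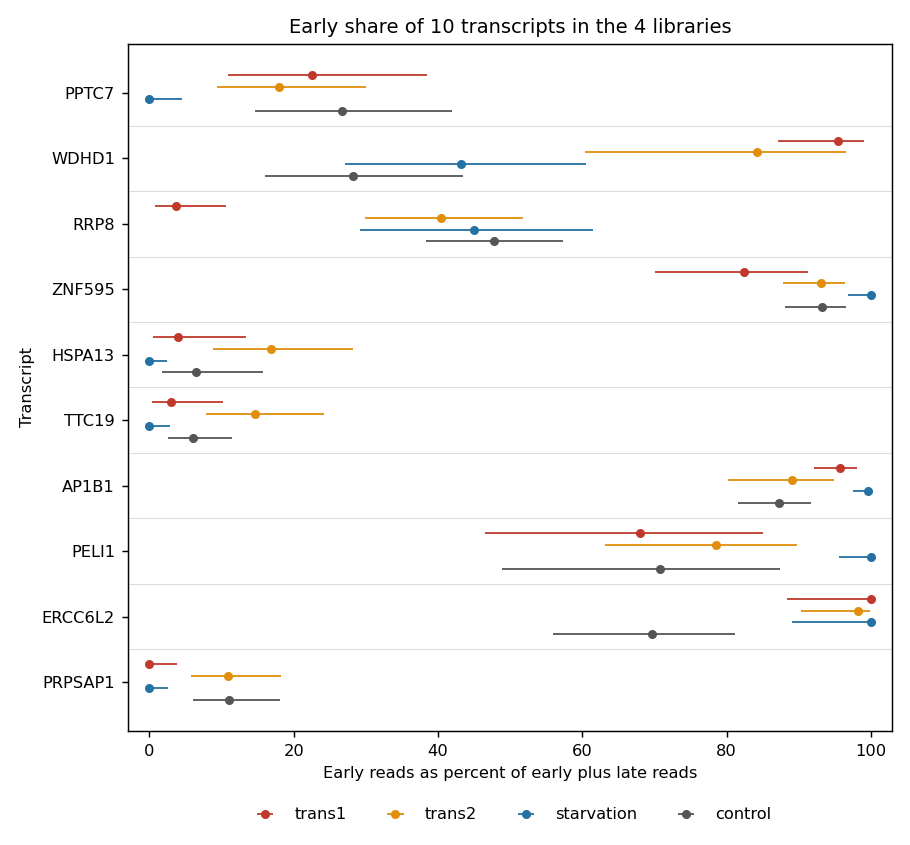
Early reads as a percent of early plus late reads for the 2 highest and the 2 lowest named transcripts of each comparison with a recovered length of at least 600 nt, 10 transcripts in all, with 1 point per library and exact 95% intervals of counting error. WDHD1 is at 95.4% in trans1 and 43.2% in starvation, RRP8 at 3.75% and 45.0%, and PPTC7 is at 0% in starvation and 26.7% in control.

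Among transcripts without a symbol, ENST00000674920 had the highest change of all transcripts tested in trans1 against starvation, at a log2 value of 5.84. For trans2 it stood at 4.67, below HSPA13 at 5.06. ENST00000674920 had 35296 window reads in trans1, 23276 in trans2, 1515 in starvation and 1331 in control. Frame 0 held only 30.4%, 26.8%, 38.9% and 20.2% of its reads after the start, in the same order. Whether all these reads are ribosome footprints was not tested. The early share of ENST00000674920 was 99.4% (99.3 to 99.5) in trans1 and 98.8% (98.6 to 98.9) in trans2, against 75.8% (73.0 to 78.4) in starvation and 86.3% (83.9 to 88.5) in control. At position -3 it had 4733 reads in trans1, 903 in trans2, 56 in starvation and 17 in control, and without it the mean density there was 4.57 in trans1, 3.11 in trans2, 3.78 in starvation and 3.09 in control.

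The lists below are counted beside the shares called over all transcripts tested. These were 15.4% higher and 15.6% lower in trans1 against starvation, 19.6% and 12% in trans2 against starvation, and 15.9% and 18.3% in starvation against control. All 37 ribosomal protein mRNAs with a window were tested, and in trans1 against starvation 1 was higher and 3 lower, with a median log2 change of -0.16 against -0.00031 over all transcripts tested. For trans2 against starvation 1 was higher and 3 lower, with a median of 0.11 against 0.16, and in starvation against control 3 were higher and 0 lower, with a median of 0.19 against -0.04. The 37 windows are all well-covered, which holds for part of the other transcripts tested. RPLP2, a protein of the ribosomal stalk, had 1202 early and 20704 late reads in trans1, 3762 and 10495 in trans2, 2316 and 17301 in starvation, and 5795 and 22239 in control. RPLP2 thus had its late reads more prominent in trans1 and starvation. RPL7A had 9604 and 821, 11934 and 3262, 14022 and 1793, and 13558 and 3265. At position -12 the 37 mRNAs had 0.417% of their pooled reads in trans1, 1.30% in trans2, 0.820% in starvation and 1.86% in control, and RPL27A was the highest member in each library.

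Well-covered mRNAs of the respiratory chain and ATP synthase had mostly late reads, with median log2 early-to-late ratios of -3.84, -1.92, -2.99 and -2.62. These medians are over 7 windows, in the order trans1, trans2, starvation and control. Not all members had mostly late reads, since the early share was 53.9% for ATP5MC3 in trans2. It was 71.1% in starvation for NDUFS1, which is not well-covered. In trans2 against starvation 5 of 9 tested were higher and 0 lower, beside 19.6% and 12% over all, with a median log2 change of 1.03 against 0.16 over all. In trans1 against starvation 2 of 8 were higher and 1 lower, beside 15.4% and 15.6%, with a median of -0.35. In starvation against control 1 of 9 was higher and 2 lower, beside 15.9% and 18.3%, with a median of -0.47, and both of these counts lie near the shares over all. COX5A, of cytochrome oxidase, had 18 early and 1217 late reads in trans1, 69 and 1171 in trans2, 38 and 2080 in starvation, and 121 and 2114 in control. ATP5F1B, the catalytic subunit of the ATP synthase, had 12 and 312, 90 and 628, 50 and 718, and 100 and 986. SDHB, of complex II, had 8 and 128, 47 and 182, 38 and 308, and 55 and 344. In these 3 the early share was highest in trans2 or control and lowest in trans1 or starvation. That order did not hold for NDUFV1, highest in trans1 at 38.4%, or for NDUFS1, highest in starvation. In trans2 against starvation ATP5F1B and SDHB lay just above the 2-fold limit, at log2 changes of 1.03 and 1.06. COX5A and ATP5F1A stood at 1.67 and 1.66. NDUFC2, also counted as higher, had no early read in any library, and its change rests on 41 late reads in trans2 and 149 in starvation.

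Of the initiation factors 9 of 11 with a window were tested in each comparison, and their counts lie near the shares called over all, which were 15.4% and 15.6%, 19.6% and 12%, and 15.9% and 18.3%. In trans1 against starvation 2 were higher and 0 lower, with a median of 0.18, in trans2 against starvation 1 and 0, with 0.0098, and in starvation against control 1 and 1, with 0.02. EIF1AX, which works with EIF1 in scanning, had 6390 early and 485 late reads in trans1, 4415 and 388 in trans2, 8585 and 692 in starvation, and 7873 and 1568 in control. It was the 1 higher in starvation, with a log2 change of 1.30. EIF2S3, a subunit of eIF2, had 187 and 145, 195 and 214, 186 and 302, and 319 and 397, with 1.06 in trans1 against starvation. EIF1 had 219 of 5599 reads at position -12 in trans1, 1052 of 6091 in trans2, 1125 of 8348 in starvation and 876 of 6988 in control. Its peak share was 3.91% in trans1, against 17.3%, 13.5% and 12.5%, so EIF1 was another mRNA whose peak was low in trans1.

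The remaining lists had few tested members, too few for a share to be set against the 15.4% higher and 15.6% lower over all in trans1, 19.6% and 12% in trans2, and 15.9% and 18.3% in starvation against control. Elongation and termination factors had 2 higher and 1 lower of 5 in trans1 against starvation, 0 and 1 in trans2 against starvation, and 1 and 0 in starvation against control. EIF5A, a factor of elongation and termination, had 640 early and 0 late reads in trans1, 917 and 14 in trans2, 1365 and 7 in starvation, and 2068 and 85 in control, and it was called in each comparison. Chaperones had 2 higher and 1 lower of 9 in trans1, 1 and 1 of 10 in trans2, both against starvation, and 0 and 1 of 10 in starvation against control. TCP1, a subunit of the cytosolic chaperonin, had 10 early and 60 late reads in trans1, 34 and 46 in trans2, 66 and 82 in starvation, and 96 and 156 in control, so trans1 was the low one. Immediate early genes had 0 higher and 2 lower of 4 in trans1, CCN1 and IER2, 1 and 1 of 7 in trans2, and 1 and 1 of 7 in starvation against control. The ATF4 and stress response list had 0 higher and 1 lower of 3 in trans1, 1 and 1 of 4 in trans2, and 0 and 1 of 4 in starvation against control. SLC7A5, an amino acid transporter of that list, had 305 early and 51 late reads in trans1, 275 and 146 in trans2, 368 and 93 in starvation, and 258 and 119 in control. mRNAs with regulatory upstream frames had 0 called of 1 in trans1, 0 higher and 1 lower of 2 in trans2, and 0 called of 2 in starvation against control.

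The position with the most reads was often the same between libraries. In 799 of the 3496 well-covered windows, 22.9%, it was the same nucleotide in all 4, and in 713 of these, 89.2%, it lay in frame 0. It was position -12 in 48 and position 0 in 17 of them. Between pairs the share was 50.1% for trans1 and starvation, 49.9% for trans2 and starvation, 47.8% for trans2 and control, and 45.2% for starvation and control. For trans1 and trans2 it was 40.1%, and for trans1 and control 36.1%. The share for the 2 trans libraries, which have the same treatment by the labels, was thus below that of either with starvation, with no test. The extreme case was SPNS1, a lysosomal lipid transporter, with position 143 holding 595 of 601 window reads in trans1, and 98.5% in trans2, 94.8% in starvation and 93.9% in control. PCDHB3, a protocadherin, had 72.2%, 91.4%, 84.2% and 86.7% at position 181, and SEC22B, a vesicle fusion protein, had 82.3%, 50.7%, 65.8% and 64.1% at position 24. Positions 143 and 181 lie outside frame 0. Of the reads after the start, frame 0 held 0.67%, 1.08%, 5.21% and 5.18% for SPNS1. For PCDHB3 it held 1.05%, 2.71%, 3.03% and 3.33%. In such windows 1 nucleotide decides whether the reads count as early, late or neither.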

How the data were processed

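Ribo-seq of HEK293 cells was analysed in 4 libraries, 1 per group. Per the submitters' processing notes, the tools were STAR 2.7.10a, Bowtie 1.2.3, cutadapt 2.8 and bcl2fastq 2.20.0.422, with roles not given. The build they name for these samples is a mouse one, although the transcript IDs are human. How footprint ends were shifted, if at all, was not given in the sources used here. The deposited tables hold a signal per nucleotide, which, per the file headers and values, the authors divided by an average for its transcript. The recovered length of RPL41 was 81 nt, shorter than its window. The average therefore appears to be that of the coding region, and recovered lengths were read as coding lengths.

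Each value is a whole multiple, within 0.01, of a smallest step, particular to its window. Reads are values divided by the step. A window with reads at 1 position gives only the smallest number possible, and this concerned 806 windows in trans1, 345 in trans2, 523 in starvation and 351 in control. The recovered length is the smallest multiple of 3 that the 4 steps allow, was found for 11196 windows, and can be a divisor or a multiple of the true one where reads are few. Symbols came from transcript names in the deposited peak lists, which pair 5745 transcripts.

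Python 3.11.15, numpy 2.4.6, pandas 2.3.3, scipy 1.17.1 and matplotlib 3.10.9 were used, and read recovery was tested on simulated data. Intervals are exact 95% binomial (Clopper-Pearson) intervals of counting error. With 1 library per group no test was run. Named transcripts are the 10 highest and the 10 lowest changes with a symbol, histones and pseudogenes aside, and the 10 with the most reads at -12. The transcripts named at -12 and -3 in comparisons, in the frame and at shared top positions were chosen after their values were seen. The members, lists and rules were chosen with earlier results of these data known. No sequence is printed, because the sources used here hold none for these windows. Some transcripts that the rules name are not reported here.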

Additional observations from a re-analysis of the deposited data

Results flagged for a closer look

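The log2 ratio of the mean density at position -3 over well-covered windows was 0.28 in trans1 against starvation and -0.28 in trans2 against starvation. It stands out because the 2 libraries, given the same treatment by the labels, lay on opposite sides of starvation. With 1 library each, the difference was not tested.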

How the results depend on the processing

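Of 122 values recomputed under alternatives, 53 stayed within their margin and 69 moved beyond it. The leaving out of ENST00000674920 and of KCTD19, the length limit for counts and the larger read addition at single positions were chosen after seeing the data. Values are in the order trans1, trans2, starvation and control. The peak at -12 was 4.41, 6.31, 5.49 and 7.11 in pooled reads, 7.50, 7.57, 7.92 and 7.48 in windows with at least 64 reads, and 4.44, 5.51, 5.41 and 5.51 without the highest 1% of transcripts. The early-to-late ratio of the mean profile was 1.26, 1.17, 1.15 and 1.07 in pooled reads, 0.937, 0.995, 0.943 and 0.961 in windows with at least 64 reads, and 0.976, 1.04, 0.966 and 0.982 with an early window from nt 15. It was 0.965, 1.01, 0.965 and 0.982 without each transcript's highest position, and 1.07, 0.997 and 1.02 in trans2, starvation and control at lengths of at least 600 nt. The ratio thus lay on either side of 1 in each library depending on the setting, so no library can be said to have more early than late density. The frame 0 share was 70.9%, 72.2%, 74.4% and 74.0% as a mean of densities and 83.1%, 84.0%, 85.9% and 85.2% without the highest position. It was 85.2%, 84.3% and 87.3% in trans1, trans2 and starvation from nt 15 on. Without ENST00000674920 it was 85.4% in trans1 and 84.5% in trans2, and without it and KCTD19 85.6%, 85.1%, 87.4% and 86.6%.

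Counts of transcripts with a higher and a lower early-to-late ratio changed with the limits, as fewer or more transcripts were tested or called. With at least 16 reads they were 1029 and 996 in trans1 against starvation, 1359 and 931 in trans2 against starvation, and 1178 and 1317 in starvation against control. With at least 64 reads they were 272 and 304, 486 and 275, and 421 and 473. The balance in trans1, 588 higher and 596 lower, also turned at lengths of at least 600 nt, with 451 and 429, and with 5 reads added, with 440 and 408. At 1.5-fold the counts were 1002 and 1039, 1459 and 952, and 1269 and 1369. With 5 reads added, lower calls at -12 were 116 in trans1 and 100 in trans2, and at -3 they were 55 in trans1, all against starvation. The cause of the other shifts was not tested. No paired analysis was possible because each group had 1 library. Depth limits the single transcript most, since the median window held 30 reads in trans1.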
